A study of Mus musculus with 42 samples.

Results

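The insulin-like growth factor (IGF) binding proteins are secreted proteins that hold IGF1 and IGF2 in the circulation and around cells. The 6 genes described here are Igfbp1, Igfbp2, Igfbp3, Igfbp4, Igfbp5 and Igfbp7. They were chosen by name, not by a measured value, and all 6 were listed in each of the 6 deposited tables, out of 19758 gene names in the whole series. Igfbp6, a low-abundance relative, is given only where it bears on the others.

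The liver makes most of the circulating IGF1, under growth hormone, and several of its carriers. Igfbp1 is the acutely regulated member: its transcription in hepatocytes rises in fasting and is shut off by insulin through the loss of FOXO1 from its promoter. Igfbp2 is the main carrier outside the large serum complex, Igfbp3 joins IGF and the acid-labile subunit (Igfals) in that complex, Igfbp4 mostly restrains IGF action, Igfbp5 also binds the extracellular matrix, and Igfbp7, a relative with low affinity for IGF, is made by vascular and stromal cells.

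Livers came from 42 male mice in 6 groups of 7, with 1 library per mouse. Wild-type (WT) littermates and ChemR23 knockout (KO) mice, made with CRISPR/Cas9 on a C57BL/6J background and lacking the receptor (gene Cmklr1) for the lipid mediator resolvin E1 (RvE1), received a diet with 10% (lean) or 60% (obese) of its energy as fat from 6 weeks of age for 15 weeks. The WT obese+RvE1 and KO obese+RvE1 groups were injected intraperitoneally with 300 ng RvE1 on 4 days, while the lean and obese groups received vehicle on the same days. All livers were taken on day 5 after at least 4 hours of fasting, so every group was fasted, injected and male, and the knockout was in the whole body. The groups were therefore WT lean, WT obese, WT obese+RvE1, KO lean, KO obese and KO obese+RvE1.

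Libraries held between 15992525 and 43841120 counted reads. Values are normalized counts: the reads of a gene were scaled by a size factor set within a table of 14 libraries, so groups were compared only within a table and values of the same mice differ between tables. The targeted gene went with the labels: Cmklr1 lay between 9.72 and 22.6 normalized counts in KO lean against 40.8 to 114 in WT lean, and between 5.08 and 23.2 in KO obese against 33.3 to 102 in WT obese, with no overlap in either pair. Of 8 hepatocyte markers 7 were listed, none was at 0 in any group and none passed the test in any comparison. Each mouse name begins with a number shared by up to 4 mice, whose meaning the labels do not give.

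The 2 members that passed the test in a diet comparison are shown by the 250 bases before their start sites (RefSeq, build GRCm38.p6, sense strand of the gene), because the insulin control of Igfbp1 runs through this stretch. Capitals mark matches to the insulin response sequences CAAAACA and CAAAATA, searched on both strands and not overlapping each other. Igfbp1 lies at chr11:7197537-7197786 on the plus strand, and Igfbp2 (the first of its 2 listed start sites) at chr1:72824230-72824479 on the plus strand.
Igfbp1: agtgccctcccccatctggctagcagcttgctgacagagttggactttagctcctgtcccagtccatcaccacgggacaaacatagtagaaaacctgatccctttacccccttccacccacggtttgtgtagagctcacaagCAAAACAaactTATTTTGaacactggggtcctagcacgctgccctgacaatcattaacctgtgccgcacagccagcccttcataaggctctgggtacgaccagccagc
Igfbp2: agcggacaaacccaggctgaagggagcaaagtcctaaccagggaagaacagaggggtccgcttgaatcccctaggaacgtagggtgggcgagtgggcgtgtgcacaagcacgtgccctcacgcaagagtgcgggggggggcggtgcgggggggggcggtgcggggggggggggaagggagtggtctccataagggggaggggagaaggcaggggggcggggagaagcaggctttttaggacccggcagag
Igfbp1 held CAAAACA 108 to 102 bases before its start and CAAAATA, read on the opposite strand, 97 to 91 bases before it. None of the windows of the other 5 members held either motif. Of 32851 promoter windows of the same length, 5.56% held CAAAACA, 3.95% held CAAAATA and 0.381% held both. A match of letters is not a measured binding site.

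Members also lie as neighbours in pairs. Igfbp1 (chr11:7197782-7202546, plus strand) and Igfbp3 (chr11:7206086-7213923, minus strand) face each other tail to tail, as do Igfbp2 (chr1:72824503-72852474, plus strand) and Igfbp5 (chr1:72857932-72874884, minus strand). Igfbp4 (chr11:99041244-99054392) and Igfbp7 (chr5:77349240-77408041) stand alone. The strand setting of the counting is not given in the sources used here.

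Per kilobase of exon, Igfbp4, Igfbp2 and Igfbp1 held nearly all of the family's reads in every group. Igfbp4 made up 28.9% of the summed per-kilobase level of the 7 genes, Igfbp6 included, in WT lean (18.2% to 37.4% over 7 mice) and 48.6% in WT obese (40.2% to 70.1%). Igfbp2 made up 39.8% in WT lean and 30.9% in WT obese, and 51.4% in KO lean and 26.4% in KO obese. Igfbp1 went from 27.4% in WT lean to 15.5% in WT obese and held 14.6% in KO lean and 15.9% in KO obese.

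By mean share per kilobase, the most abundant member was thus Igfbp2 in the lean groups and Igfbp4 in the obese ones. The order varied between mice: Igfbp1 ranked 1st in at least 1 mouse of WT lean, KO lean, KO obese and KO obese+RvE1. Without division by exon length, Igfbp4 was also above Igfbp2 over the lean groups, at means of 40828 and 26904 normalized counts. Because the shares sum to 100%, a rise in the share of Igfbp4 can come from a fall of the others. Igfbp7 held 3.0% to 4.9% of the summed per-kilobase level over the group means, Igfbp3, Igfbp5 and Igfbp6 each less than Igfbp7. These shares are a description and were not tested.

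**Figure D1:**
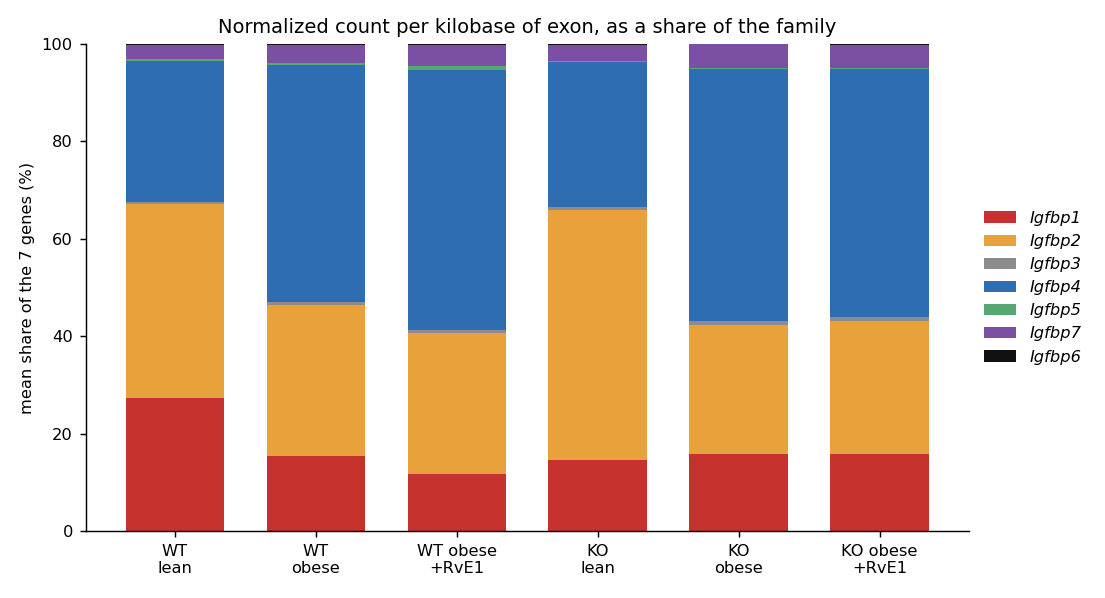
Mean share (percent, 7 mice per group) of each gene in the summed per-kilobase level of the 6 members and Igfbp6, as stacked bars for the 6 groups. Igfbp4 holds 28.9% in WT lean and 48.6% in WT obese, and 29.8% in KO lean and 51.7% in KO obese.

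The spread between mice of a group also set the members apart. In WT lean, the coefficient of variation was 78.8% for Igfbp1 and 63.9% for Igfbp5, against 16.0% for Igfbp4 and 17.2% for Igfbp7. In KO obese Igfbp1 reached 135%, a range of 30.8 times from the lowest to the highest of 7 mice, while Igfbp4 stayed within 1.34 times. Only large differences in Igfbp1 could therefore pass a test with 7 mice per group.

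**Figure D2:**
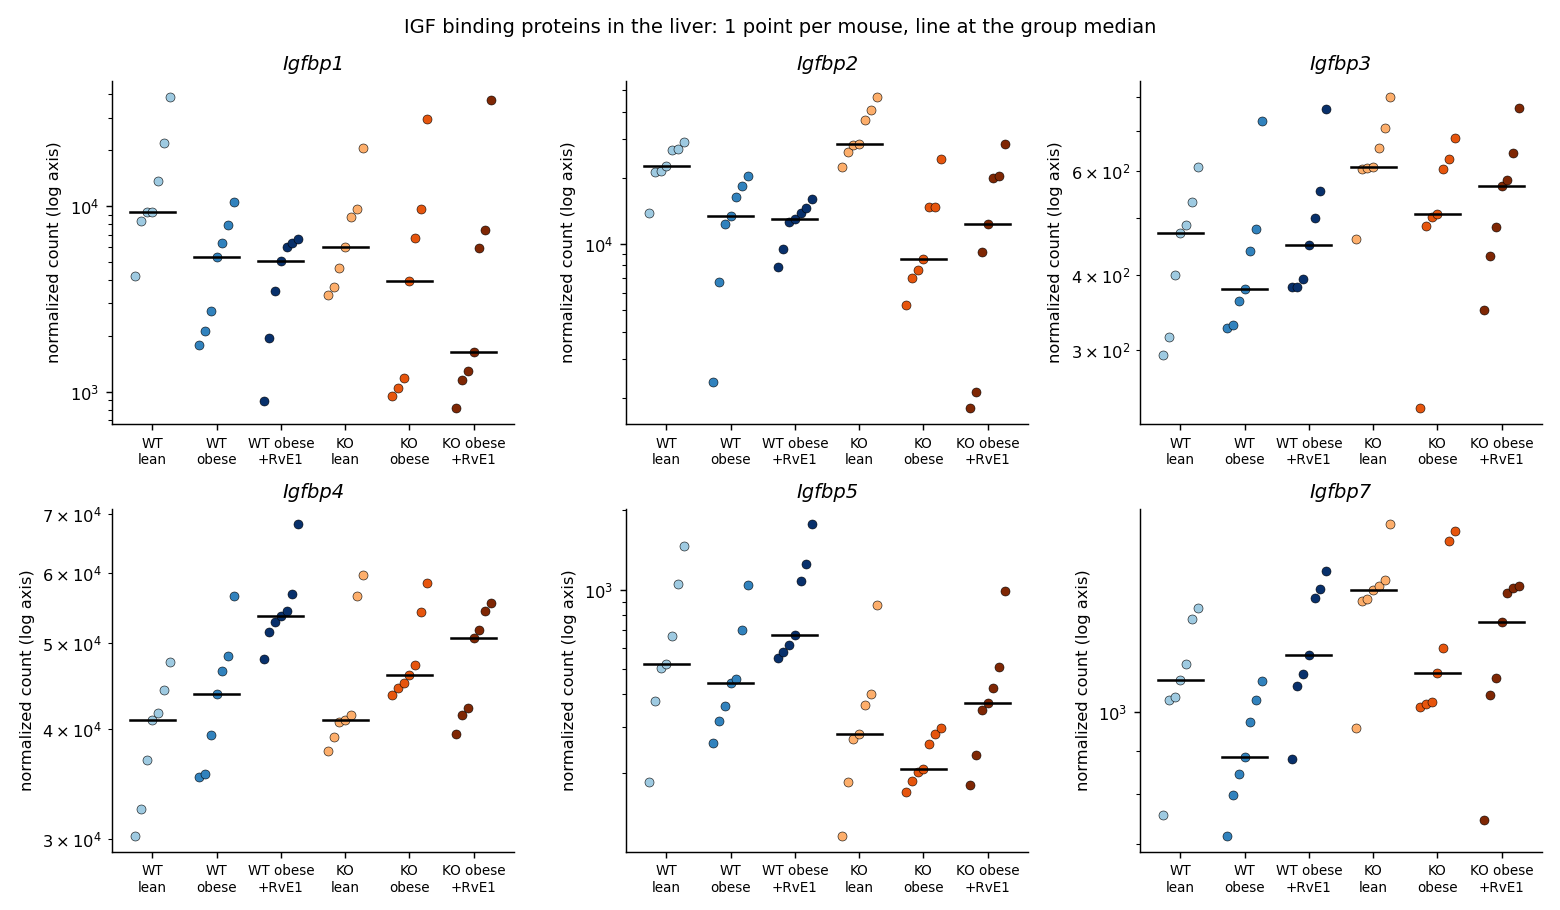
Normalized counts of the 6 members (one panel each, log axis), with 1 point per mouse, 7 mice per group, and a line at the group median. Groups come from tables normalized separately. Igfbp1 spans 953 to 29355 in KO obese, while Igfbp4 spans 43618 to 58463.

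The first comparison asked what the high fat diet did in WT mice. Igfbp1 fell in WT obese liver, and it was the 1 member of 6 to pass the test, against 3.80% of all 14012 genes tested. Passing means a Benjamini-Hochberg adjusted p under 0.1 over all genes and a change of more than 1.5-fold, from limma on log2(normalized count + 1), and changes below are on that scale. In bulk liver, fewer cells of a type and less RNA per cell cannot be told apart.

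Igfbp1 ran from 4208 to 38916 normalized counts in WT lean, with a median of 9337, and from 1780 to 10542 in WT obese, with a median of 5287. The groups overlapped: 3 of the 7 obese mice lay below every lean mouse. The log2 change was -1.47 ± 0.47 (SE, n = 7 per group, limma adjusted p = 0.0997).

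The call for Igfbp1 sits at the threshold. It was lost with the mouse name number as a block (adjusted p = 0.241) and without 12 of the 14 mice in turn, all but 8R and 22L, with adjusted p between 0.0486 and 0.200 and changes between -1.72 and -1.18. Without the 3 WT obese mice of number 6, which are the 3 that lay below every lean mouse, the change was -0.72 (adjusted p = 0.509). The direction was the same in each of these fits.

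Igfbp2 was also lower in WT obese in value without passing the test. It ran from 13898 to 29037 in WT lean, with a median of 22624, and from 2359 to 20345 in WT obese, with a median of 13355. In 4 of the 7 obese mice it lay below all lean mice, and the log2 change was -1.08 ± 0.38 (limma adjusted p = 0.135). DESeq2 called it (-0.85, adjusted p = 0.0971), and so did limma without mouse 22L (-1.24, adjusted p = 0.0738). Without mouse 6R the change was smaller, at -0.72 (adjusted p = 0.127).

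The other 4 members gave small values for the WT diet comparison. Igfbp7 had a log2 change of -0.27 ± 0.13 (limma adjusted p = 0.278) and Igfbp5 of -0.30 ± 0.39 (adjusted p = 0.737). Igfbp4, at a median of 40870 in WT lean and 43727 in WT obese, had 0.15 ± 0.15 (adjusted p = 0.642), and Igfbp3 had -0.04 ± 0.19 (adjusted p = 0.944). All 4 overlapped widely between the diets.

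In KO mice Igfbp2 fell on the high fat diet. It was again 1 member of 6, against 10.4% of all 14213 genes tested, so the count itself is near the background. Igfbp2 ran from 22356 to 46763 in KO lean, with a median of 28354, and from 5274 to 24278 in KO obese, with a median of 8563. Only mouse 23L of KO obese reached the lean range, and the other 6 lay below every lean mouse.

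The log2 change of Igfbp2 was -1.62 ± 0.29 (limma adjusted p = 0.00420), the 110th smallest p of 14213 genes. It passed with edgeR (-1.48, adjusted p = 0.00656), DESeq2 (-1.48, adjusted p = 2.49e-05) and the name number as a block (-1.56, adjusted p = 0.0252). It also passed without each mouse in turn (-1.82 to -1.46) and without all mice of each number (-1.86 to -1.17). With library totals set equal, which moves the median of all genes by 0.14, it was -1.47.

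Markers of some other cell types also fell between these groups. Of 6 Kupffer cell markers 4 were called lower in KO obese, and their summed level ran from 7018 to 14949 in KO lean and from 3913 to 5250 in KO obese. Of 6 mesothelial markers 2 were called lower (median log2 change -0.98, sum from 123 to 521 in KO lean and from 42.8 to 251 in KO obese), and of 9 sinusoidal endothelial markers 2 (median -0.44, sum from 4763 to 6926 and from 3027 to 5719). These counts stand against 10.4% of all genes. Other lists did not fall as a whole. In value, 5 of 6 cholangiocyte markers (median 0.26, 0 called) and 6 of 10 stellate cell and fibroblast markers (median 0.05, 1 called lower) were higher. Of 2 adipocyte markers tested 1 was called higher. None of these markers was at 0, and their part in the KO diet values of the members was not tested.

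Igfbp1 did not pass in KO mice. It ran from 3338 to 20685 in KO lean, with a median of 5998, and from 953 to 29355 in KO obese, with a median of 3929. The highest and the lowest of the 14 mice were both KO obese, and the log2 change was -0.87 ± 0.68 (limma adjusted p = 0.403). Leaving out the 3 KO obese mice of number 10, which lay between 953 and 1181, turned it to 0.48.

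For the remaining members the KO diet changes were -0.33 ± 0.19 for Igfbp3 (limma adjusted p = 0.249), -0.41 ± 0.32 for Igfbp5 (adjusted p = 0.404) and -0.17 ± 0.14 for Igfbp7 (adjusted p = 0.442). Igfbp4 had 0.12 ± 0.15 (adjusted p = 0.629). Igfbp3 passed once the number 10 mice were left out (-0.60, adjusted p = 0.0920).

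Whether the diet acted differently in the 2 genotypes was tested as an interaction, KO change minus WT change, over the 28 mice of both diet tables. No member passed, against 0.00718% of 13924 genes, with 2553 genes at an unadjusted p under 0.05 and 926 called by DESeq2. Igfbp2 had an interaction of -0.54 ± 0.51 (limma adjusted p = 0.612) and Igfbp1 of 0.60 ± 0.89 (adjusted p = 0.768). That Igfbp1 passed in WT and Igfbp2 in KO is thus not shown to be a difference between genotypes.

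**Figure D3:**
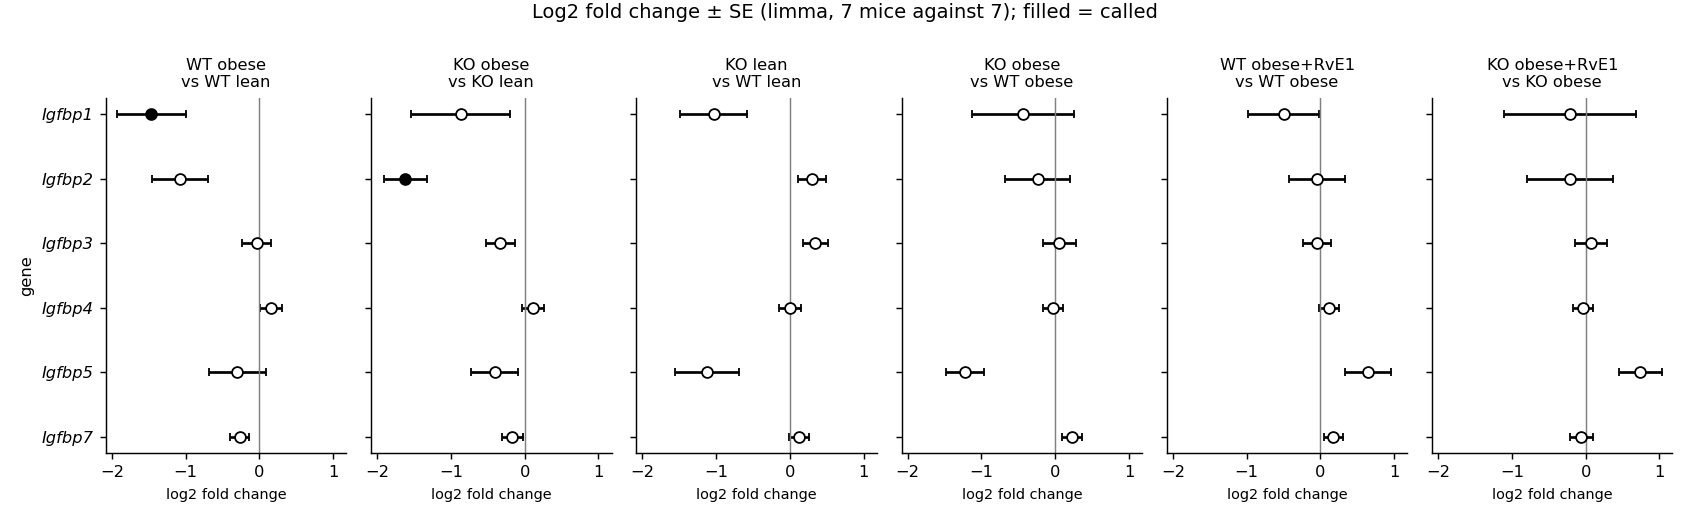
Log2 fold change with its SE (limma, 7 mice per group) of each member in the 6 comparisons, with filled points for changes that passed. The filled points are Igfbp1 in WT obese against WT lean (-1.47) and Igfbp2 in KO obese against KO lean (-1.62).

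The next comparisons set KO against WT at each diet and share their groups with the diet comparisons. Between the lean groups 0 of 6 members passed, against 6.65% of 13031 genes (3488 genes at an unadjusted p under 0.05, 948 called by DESeq2). Igfbp5 and Igfbp1 had the largest values, both lower in KO lean. The groups also stood apart in Kupffer cell markers, of which 6 of 6 were called higher in KO lean (median log2 change 0.91). Their sum ran from 2609 to 5997 in WT lean and from 6385 to 13556 in KO lean, with none at 0. With the name number as a block only 3 of 13031 genes passed in all, so the 6 calls cannot all hold there. The part of these markers in the values of the members was not tested.

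Igfbp5 ran from 193 to 1521 normalized counts in WT lean, with a median of 544, and from 105 to 794 in KO lean, with a median of 257. The ranges overlapped, with 2 KO mice below every WT mouse. Its log2 change was -1.12 ± 0.44 (limma adjusted p = 0.113), and with DESeq2 it was -1.13 (adjusted p = 0.0991). It also passed in limma without WT lean mouse 21R (-1.39, adjusted p = 0.0641) or without KO lean mouse 9RL (-1.38, adjusted p = 0.0691), the highest of its group.

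Igfbp1 ran from 4349 to 40561 in WT lean, with a median of 9710, and from 3031 to 18844 in KO lean, with a median of 5445. The groups overlapped, with 3 KO mice below every WT mouse. Its log2 change was -1.03 ± 0.46 (limma adjusted p = 0.159), and it passed without WT lean mouse 8R (-1.29, adjusted p = 0.0891) or without KO lean mouse 20R (-1.31, adjusted p = 0.0406). Setting library totals equal, which moves the median of all genes by -0.12 here, gave calls for Igfbp1 (-1.15, adjusted p = 0.0898) and Igfbp5 (-1.24, adjusted p = 0.0901).

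Igfbp3 had 0.35 ± 0.16 (limma adjusted p = 0.188), Igfbp2 0.30 ± 0.19 (adjusted p = 0.332), Igfbp7 0.13 ± 0.13 (adjusted p = 0.570) and Igfbp4 0.01 ± 0.15 (adjusted p = 0.988) between the lean groups. Igfbp2 was thus not lower in KO lean than in WT lean in value, with medians of 25710 and 23467.

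Between the obese groups, Igfbp5 separated KO from WT completely. It ran from 287 to 1147 normalized counts in WT obese, with a median of 489, and from 164 to 285 in KO obese, with a median of 202. All 7 KO mice lay below all 7 WT mice, and such a separation downward occurred in 0.0212% of 14162 genes, that is, in 3 genes, Igfbp5, Cmklr1 and Cbx1 (the names chosen after their values were seen). The ranges of every other member overlapped here and in each other comparison.

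The log2 change of Igfbp5 was -1.22 ± 0.25, the 3rd smallest p of 14162 genes (unadjusted p = 0.000183). It did not pass over all genes in limma (adjusted p = 0.862) or edgeR (adjusted p = 0.484), and it was called by DESeq2 (-1.35, adjusted p = 0.00271). Without each mouse in turn it stayed between -1.36 and -1.03. The call rule found 0 of 6 members, against 0.0141% of genes (2 of 14162), with 319 genes at an unadjusted p under 0.05 and 3 called by DESeq2. With the name number as a block 0 of 14162 genes passed, and 75 had an unadjusted p under 0.05 in limma.

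The other members overlapped between the obese groups. Igfbp1 had a log2 change of -0.43 ± 0.69, with medians of 5816 in WT obese and 3788 in KO obese. Igfbp2 had -0.24 ± 0.44, Igfbp7 0.23 ± 0.13, Igfbp3 0.06 ± 0.22 and Igfbp4 -0.03 ± 0.14, and all 5 had a limma adjusted p of 0.999938. For Igfbp1 the direction depends on the tool, since edgeR and DESeq2 both gave 0.33.

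Markers of mesothelium, the cell layer that covers the liver surface, were also lower in value in KO obese. Of 7 such markers 6 were listed and none was at 0. Their summed level ran from 114 to 491 in WT obese, with a median of 165, and from 41.3 to 242 in KO obese, with a median of 103. All 6 were lower in KO obese in value, with a median log2 change of -0.91 against -0.0022 over all genes, and none passed the test. Their part in the Igfbp5 difference was not tested.

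The same held in the lean groups, where the marker sum had a median of 276 in WT lean and 199 in KO lean (6 of 6 lower in value, median log2 change -0.45). In both diet comparisons 0 of 6 markers were higher in value, with median log2 changes of -0.74 (WT) and -0.98 (KO). Igfbp5 had smaller diet changes there, and neither passed. Over the 42 mice, with each group's mean removed, Igfbp5 went with the marker sum at Pearson r = 0.73 and Spearman rho = 0.81, positive within all 6 groups. The permutation p was 1e-05 for each, the smallest that 100000 permutations can give, and 7e-05 after adjustment over 14 such relations. These permutations moved single mice within a group and took no account of the name number. Without the 2 mice farthest from the median of the sum, r was 0.67. Igfbp6 gave r = 0.89 and rho = 0.87 (adjusted permutation p = 7e-05, r = 0.86 without 2 mice). The other 5 members gave r between -0.15 and 0.20. No other marker list was set against the members in this way, so the relation is not shown to be particular to mesothelium.

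**Figure D4:**
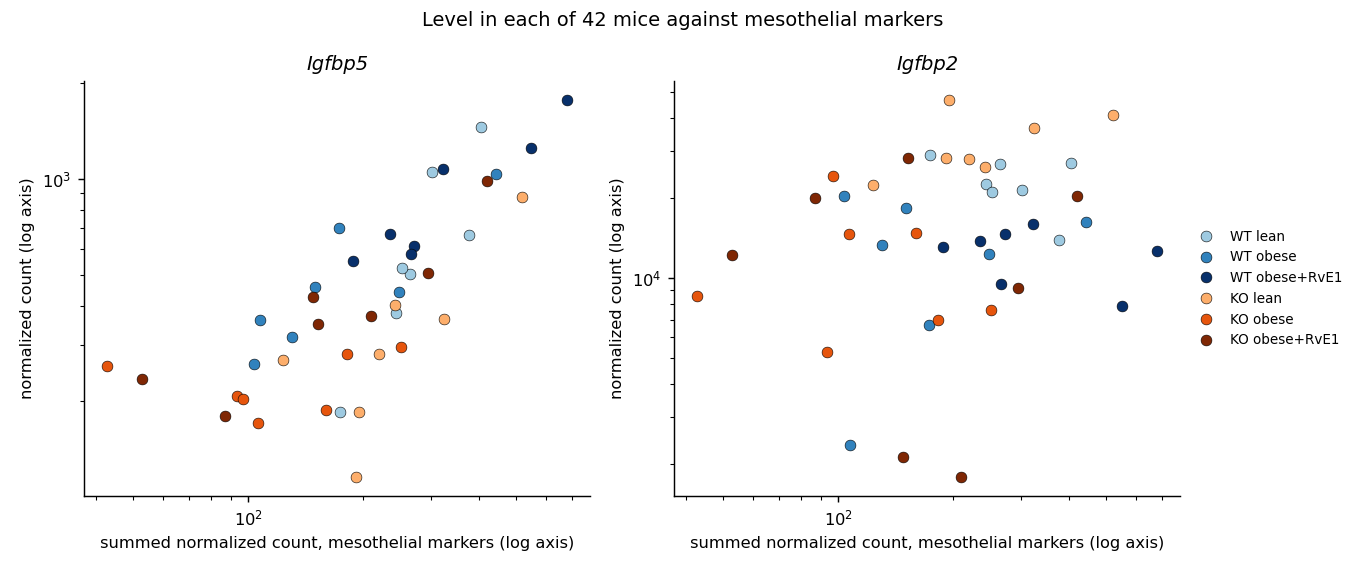
Igfbp5 (left) and Igfbp2 (right) in normalized counts against the summed level of 6 mesothelial markers, 1 point per mouse, 42 mice, both axes on a log scale. Igfbp5 rises with the sum (r = 0.73 with group means removed), and Igfbp2 shows no such slope.

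The RvE1 comparisons asked what the lipid did in obese mice of each genotype, and their vehicle groups are the obese groups used above. In WT mice 0 of 6 members passed, against 0% of 13085 genes (795 at an unadjusted p under 0.05 and 15 called by DESeq2). In KO mice 0 of 6 passed, against 0% of 14207 genes (1179 at an unadjusted p under 0.05 and 14 called by DESeq2). Igfbp5 had the largest log2 change in both.

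With vehicle, Igfbp5 ran from 306 to 1224 in WT obese, with a median of 519, and with RvE1 from 552 to 1770, with a median of 671. Only 2 treated mice lay above every vehicle mouse, and the log2 change was 0.65 ± 0.31 (limma unadjusted p = 0.0562, adjusted p = 0.841).

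In KO mice Igfbp5 ran from 172 to 299 with vehicle, with a median of 211, and from 180 to 983 with RvE1, with a median of 372. Here 5 of the 7 treated mice lay above every vehicle mouse. The log2 change was 0.74 ± 0.29 (limma unadjusted p = 0.0189, adjusted p = 0.563), between 0.52 and 0.92 without each mouse in turn.

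The mesothelial sum also had a higher median with RvE1. Its median was 176 with vehicle and 272 with RvE1 in WT obese, and 107 and 152 in KO obese. In value, 6 of 6 markers were higher in WT and 5 of 6 in KO, with median log2 changes of 0.78 and 0.62. Igfbp6 had log2 changes of 0.86 ± 0.46 (limma adjusted p = 0.874) and 0.50 ± 0.56 (adjusted p = 0.803).

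Igfbp1 had a median of 6204 with vehicle and 5073 with RvE1 in WT mice (-0.50 ± 0.48, limma adjusted p = 0.962), and of 3965 and 1645 in KO mice (-0.22 ± 0.89, adjusted p = 0.957). In treated KO mice it ran from 812 to 37510.3, a range of 46.2 times. Igfbp2 had -0.04 ± 0.38 in WT (adjusted p = 0.997) and -0.21 ± 0.58 in KO mice (adjusted p = 0.933). Igfbp3, Igfbp4 and Igfbp7 stayed between -0.06 and 0.18 in both genotypes.

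The RvE1 change in KO minus that in WT passed for no member, against 0% of 13059 genes (311 at an unadjusted p under 0.05 and 0 called by DESeq2). For Igfbp5 the difference was 0.10 ± 0.45, for Igfbp1 0.28 ± 1.09 and for Igfbp2 -0.17 ± 0.74 (limma adjusted p = 0.999927 for each).

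In the obese groups given vehicle, Igfbp1 was ordered by the number in the mouse names. In KO obese the 3 mice of number 10 lay between 953 and 1181, the 3 of number 31 between 3929 and 9637, and the single mouse of number 23 at 29355. In WT obese the 3 mice of number 6 lay between 1780 and 2726, the 3 of number 27 between 5287 and 7886, and the single mouse of number 22 at 10542. In both of these groups the mice of 1 number did not overlap those of another, which was not tested.

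The pattern was less sharp elsewhere. In WT obese+RvE1 the mice of number 7 ran from 894 to 6047 and those of number 30 from 5073 to 6667. In WT lean those of number 8 ran from 4208 to 9337 and those of number 21 from 8282 to 9333. In KO lean, the mice of number 20 ran from 3338 to 20685, across the whole range of the group, and in treated KO mice those of number 23 ran from 1293 to 37510.3. Apart from number 23, every number occurs within 1 group, so the number and the group cannot be told apart within most comparisons, and what the number stands for (cage, litter or day) is not given.

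**Figure D5:**
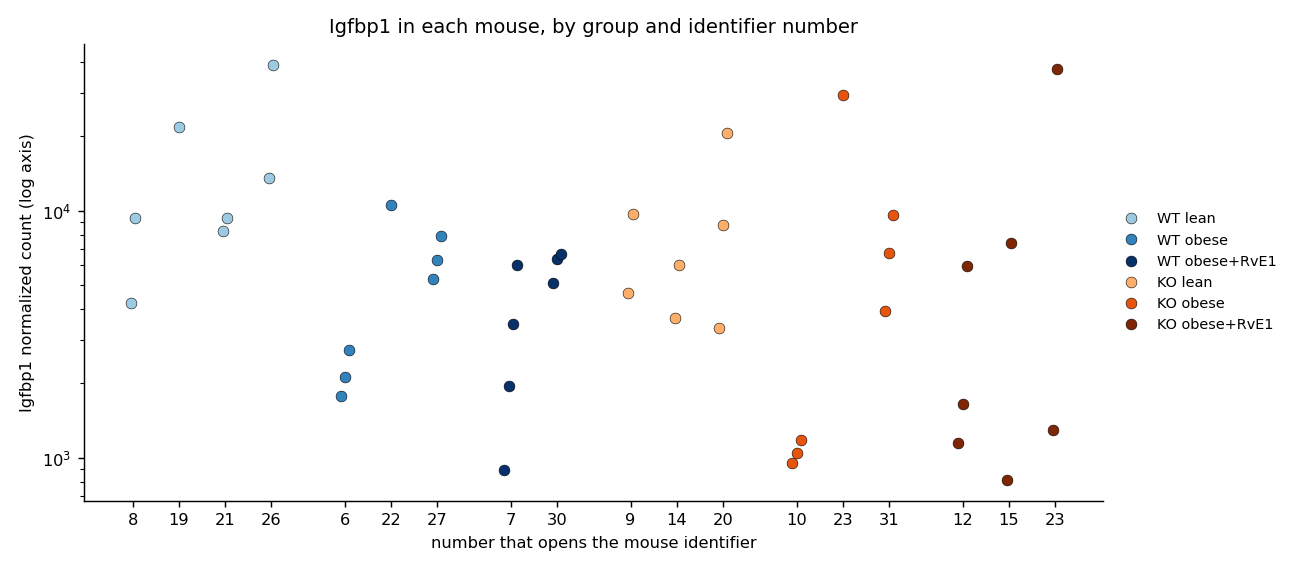
Igfbp1 in normalized counts (log axis) for each mouse, by group and by the number that begins the mouse's name. In KO obese the number 10 mice lie between 953 and 1181 and the number 31 mice between 3929 and 9637.

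Between members, 15 pairs were compared over the 42 mice with group means removed. Igfbp2 and Igfbp4 went together (r = 0.51, rho = 0.49, adjusted permutation p = 0.00585 and 0.0186), as did Igfbp1 and Igfbp4 (r = 0.43, rho = 0.47, adjusted permutation p = 0.0294 and 0.0186). Without the 2 farthest mice these were 0.42 and 0.51. Both were lost when library totals were set equal, at r = 0.09 and -0.08.

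The neighbours on the chromosome were not among the pairs that passed. Igfbp3 and Igfbp7 had r = 0.45 and rho = 0.41 (adjusted permutation p = 0.0295 and 0.0613), 0.44 without 2 mice and 0.57 with equal totals. The other 12 pairs had adjusted permutation p values for Pearson's r of at least 0.30.

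Igfbp4 and Igfbp2 went with how concentrated a library was. The 100 most abundant genes took between 39.8% and 55.4% of the reads of a library. The median share was 51.2% in KO lean and 46.7% in KO obese, and 46.2% in WT lean and 44.4% in WT obese. With group means removed, this share went with Igfbp4 at r = 0.54 (rho = 0.58, adjusted permutation p = 0.00317 and 0.00135), a gene that is itself among them. For Igfbp2 it was r = 0.51 (rho = 0.46, adjusted permutation p = 0.00823 and 0.0178) and for Igfbp1 0.32 (rho = 0.41, adjusted permutation p = 0.133 and 0.0339). Igfbp2 ranked 95th by mean normalized count over the lean groups, so it too can be among the 100 in some libraries. The part of this share in the diet values of the members was not tested.

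The genes most like each member over the 42 mice, of 10770 genes compared and as a description only, were these. Igfbp1 was most like Irf2bp2 (r = 0.919), Jund (0.841) and Trp53inp1 (0.837), and Igfbp2 like Apoa1 (0.914), C8b (0.904) and Serpinf2 (0.901), which encode secreted liver proteins. Igfbp4 was most like Serpinf1 (0.897), Igfbp7 like Mcam (0.804) and Igfbp3 like Col14a1 (0.634). Igfbp5 was most like Ezr (0.765), Gpm6a (0.7), which is among the mesothelial markers summed above, and Aebp1 (0.682). The points share libraries and their depth.

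On the ligand side of the axis, Igf1 and Igfals moved little with the diet. Igf2, the other ligand, was limited by depth, and its change is not given here. Igf1 had log2 changes of -0.08 ± 0.15 in the WT diet comparison (limma adjusted p = 0.817) and -0.09 ± 0.15 in the KO one (adjusted p = 0.713), and Igfals, the third part of the serum complex, -0.04 ± 0.14 and -0.11 ± 0.12. Of 8 ligands, receptors and carrier genes, 0 passed in the WT diet comparison and 1 in the KO one, Lrp1, a large endocytic receptor, at 0.59 ± 0.21 (adjusted p = 0.0617), against 3.80% and 10.4% of all genes. Lrp1 was lower in KO lean than in WT lean (-0.74 ± 0.21, adjusted p = 0.0509), again 1 of 8, against 6.65% of all genes.

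In growth hormone signalling, 1 of 6 genes fell in WT obese, Socs2, the feedback inhibitor that growth hormone induces, at -1.67 ± 0.38 (limma adjusted p = 0.0240), against 3.80% of all genes. In KO obese 2 of 6 rose, the growth hormone receptor Ghr (0.63 ± 0.22, adjusted p = 0.0617) and Stat5a (0.67 ± 0.17, adjusted p = 0.0189), against 10.4% of all genes. Ghr ran from 7894 to 18965 in KO lean and from 13012 to 22068 in KO obese, with 4 obese mice above every lean mouse.

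Among 18 genes of the fasting and insulin response, to which Igfbp1 belongs by its regulation, 4 fell in WT obese (Irs1, Irs2, Fgf21 and Pdk4) and 1 rose, the lipogenic factor Srebf1 (0.96 ± 0.27, limma adjusted p = 0.0628), against 3.80% of all genes. Irs2, named after its value was seen, had -1.48 ± 0.35 (adjusted p = 0.0279), and the fasting hormone Fgf21 had -1.68 ± 0.33 (adjusted p = 0.0102). The other genes of the list were not called in WT obese, and a part of insulin or FOXO1 in these values was not tested. The median of the list was -0.38 against 0.0030 over all genes. In KO obese 2 fell, Fgf21 (-1.39 ± 0.30, adjusted p = 0.00900) and Angptl4 (-0.81 ± 0.27, adjusted p = 0.0526), and 1 rose, Foxo1 (0.62 ± 0.25, adjusted p = 0.0937), while Irs2 had 0.04 ± 0.30. These 3 of 18 stand against 10.4% of all genes.

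In KO lean against WT lean, 3 of the 18 fell, Irs2 (-1.35 ± 0.38, limma adjusted p = 0.0482), Sesn3 (-0.63 ± 0.15, adjusted p = 0.0357) and Trib1 (-0.76 ± 0.23, adjusted p = 0.0598), and none rose, against 6.65% of all genes. The interaction of diet and genotype for Irs2 was 1.52 ± 0.49 (adjusted p = 0.141). In KO obese against WT obese and in both RvE1 comparisons, none of the genes in these 3 lists passed in limma. In the RvE1 comparisons limma called 0 of all genes, while DESeq2 called 15 in WT and 14 in KO mice. Whether genes of these lists are among those is not given here. The paper reports, from DESeq2, that Fgf21 was higher with RvE1 in WT obese and that Cish, of the growth hormone list, was lower in KO obese.

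Of 9 genes for proteases that cut IGF binding proteins and their inhibitors, 4 could be tested in the diet comparisons. Htra1, a protease that cuts Igfbp5, fell in KO obese (-0.59 ± 0.23, limma adjusted p = 0.0911), the 1 call of the list, against 10.4% of all genes. Of 11 other genes with an IGFBP-type domain, 8 could be tested in each of these comparisons. In KO obese 2 fell, Igfbp6 (-1.69 ± 0.47, adjusted p = 0.0272) and Wisp1, and 1 rose, Crim1 (0.66 ± 0.14, adjusted p = 0.0107), against 10.4% of all genes. The mesothelial markers, with which Igfbp6 went over the mice, fell there too (2 of 6 called, Upk3b and Upk1b, median log2 change -0.98), and their part in the Igfbp6 value was not tested. In KO lean against WT lean 1 of 8 fell, against 6.65% of all genes, namely Crim1 (-0.77 ± 0.19, adjusted p = 0.0400).

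Several of these calls depend on the number in the mouse names. Between the lean groups, 5 genes of the ligand, fasting and IGFBP-type domain lists had been called. With the number as a block, none of these 5 passed (limma adjusted p between 0.139 and 0.160 for Sesn3, Crim1, Irs2, Trib1 and Lrp1). In all, 3 of 13031 genes passed there. Cell type markers are not counted among the 5. In the KO diet comparison Igfbp6, Ghr, Lrp1, Angptl4, Foxo1 and Htra1 were lost (adjusted p between 0.102 and 0.243), while Fgf21, Crim1, Stat5a and Wisp1 passed. In the WT diet comparison Irs1, Irs2, Fgf21 and Socs2 passed, and Pdk4 (0.275) and Srebf1 (0.161) did not. With equal library totals the calls for Wisp1 (0.116) and Htra1 (0.246) in KO obese and Pdk4 (0.106) in WT obese were lost.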

How the data were processed

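Whole-liver RNA of 42 mice was measured, 7 per group. The authors built TruSeq stranded libraries (the labels give polyA RNA, the methods a total RNA kit), aligned read pairs to mm10 with Bowtie2, counted them per gene with featureCounts and ran DESeq2 once per table of 14 libraries. The sources used here give no versions, annotation or strand setting. The deposited signal values are normalized counts, reads divided by a DESeq2 size factor. Whole reads were recovered from 100% of values (within 0.1 reads) and were used for count tests. The authors' fold change and p-value columns were not used.

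Genes with a mean of at least 5 normalized counts were fitted with limma 3.58.1 (R 4.3.3; lmFit, then eBayes with a mean trend) on log2(normalized count + 1), two-sided, with Benjamini-Hochberg adjustment over all genes of a comparison. A call needed adjusted p under 0.1 and over 1.5-fold, and interactions needed adjusted p under 0.1 only. Alternatives were edgeR 4.0.16, DESeq2 1.42.0, pseudocounts of 0.5 and 4, no filter, TMM or equal library totals, quality weights, the name number as a random block, other thresholds and each mouse left out. Leaving out all mice of a name number was added after seeing the data. Correlations used log2 values centred on group means. Their permutation p-values treat the mice of a group as exchangeable, whatever their name number. Those with the mesothelial sum and with the read share of the top genes were not among the planned tests. Scripts were tested on simulated data. Promoters are from RefSeq, and all 6 members matched. The text names the members, Igfbp6, Igf1, Igf2, Igfals, Ghr, up to 2 called genes of smallest adjusted p per list, and up to 3 genes most like a member (mean of at least 50). Irs2 in the diet comparisons and the interaction, Pdk4, Srebf1, Foxo1, Trib1 and Wisp1 were named after their values were seen. Members and lists were chosen with earlier results of these data known. The sources do not say that each mouse came from a separate cage or litter, so p-values measure the spread between these mice.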

Additional observations from a re-analysis of the deposited data

Results flagged for a closer look

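In 6 of the 36 sets of 7 mice tested (6 members in 6 groups), the highest mouse lay far from the other 6 on the scale of normalized counts. The limit used gives about 1 in 20 by chance for values with a normal spread, and these counts are skewed upward. On the log2 scale of the tests 0 of these 6 mice passed the limit, so they are extreme only on the count scale. On that log2 scale 3 other sets of the 36 passed it, each at its lowest mouse (Igfbp2 in WT lean, Igfbp3 in KO obese and Igfbp7 in KO lean). The 6 mice on the count scale were, for Igfbp1, 20R of KO lean at 20685 normalized counts (the next mouse was at 9704), 23L of KO obese at 29355 (next 9637) and 23-2L of KO obese+RvE1 at 37510.3 (next 7393). For Igfbp5 they were 9RL of KO lean at 875 (next 402) and 12RL of KO obese+RvE1 at 983 (next 507). For Igfbp3 it was 27RL of WT obese at 728 (next 479). Without mouse 23L the KO diet change of Igfbp1 was -1.37 (limma adjusted p = 0.101), and without 12RL the RvE1 change of Igfbp5 in KO mice was 0.52 (limma adjusted p = 0.753). Neither passed the test with or without the mouse.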

How the results depend on the processing

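Of 1488 alternative log2 changes, 22 of those from other settings, 57 from leaving out 1 mouse and 25 from leaving out the mice of 1 number changed direction, none of them for a change that had passed. The count of members passing in the WT diet comparison (1) was 0 at an adjusted p under 0.05, at a log2 change over 1.5, at pseudocount 0.5, with no filter, with TMM and with the name number as a block, and 2 with DESeq2 and with quality weights. In the KO diet comparison (1) it was 2 with weights. Between the lean groups (0) it was 2 with equal totals and 1 with DESeq2 or weights, and between the obese groups (0) it was 1 with DESeq2. Leaving out 1 mouse gave 0 to 2, 1 to 1 and 0 to 1 in the first 3 of these. Of 3 member pairs with r over 0.4, equal totals left 1. Over all genes, calls went with the block from 532 to 242 (WT diet) and from 1476 to 750 (KO diet). They went from 866 to 3 (lean groups) and from 2 to 0 (obese groups). With weights they went from 866 to 1536 (lean groups), and with DESeq2 from 1 to 926 (diet by genotype). With equal totals, 265 genes were higher and 734 lower between the lean groups (514 and 352 in the limma result reported) and 1324 and 351 in the KO diet comparison (706 and 770). The cause was not tested.

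With equal totals, changes turned to 0.019 for Igfbp3 (WT diet), -0.11 for Igfbp4 (lean groups), 0.018 for Igfbp7 and 0.041 for Igfbp4 (RvE1 in KO) and 0.051 for Igfbp4 (diet by genotype), and the correlation of Igfbp1 with Igfbp4 to -0.075. With weights they turned to -0.15 for Igfbp4 (lean groups), 0.48, 0.092, -0.089 and 0.28 for Igfbp2, Igfbp4, Igfbp3 and Igfbp1 (RvE1 in KO), 0.090 for Igfbp4 (diet by genotype), and 0.55 for Igfbp2 and -0.035 for Igfbp3 (RvE1 by genotype). With the block Igfbp4 between the lean groups turned to -0.0083. With edgeR and DESeq2, Igfbp1 turned to 0.33 and 0.33 (obese groups) and 0.070 and 0.066 (RvE1 in KO), and Igfbp2 to 0.20 and 0.18 (RvE1 in KO) and 0.47 and 0.46 (RvE1 by genotype).

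Fits without 1 mouse or without the mice of 1 number gave changes on both sides of 0: in the WT diet comparison Igfbp3 from -0.24 to 0.044 and Igfbp5 from -0.74 to 0.15, in the KO diet comparison Igfbp1 from -1.46 to 0.48, in the lean groups Igfbp4 from -0.16 to 0.085, in the obese groups Igfbp1 from -1.18 to 0.91, Igfbp2 from -0.60 to 0.21, Igfbp3 from -0.21 to 0.33 and Igfbp4 from -0.14 to 0.035, in RvE1 in WT Igfbp1 from -1.24 to 0.24, Igfbp2 from -0.41 to 0.11 and Igfbp3 from -0.20 to 0.15, in RvE1 in KO Igfbp1 from -1.56 to 0.37, Igfbp2 from -0.66 to 0.46, Igfbp3 from -0.20 to 0.34, Igfbp4 from -0.10 to 0.10 and Igfbp7 from -0.18 to 0.10, in diet by genotype Igfbp4 from -0.088 to 0.033 and Igfbp5 from -0.33 to 0.16, in RvE1 by genotype Igfbp1 from -0.31 to 0.78, Igfbp2 from -0.44 to 0.22, Igfbp3 from -0.054 to 0.24 and Igfbp5 from -0.13 to 0.28. No paired analysis was possible because the labels give no replicate numbers and the groups compared share at most 1 name number (23, in KO obese and KO obese+RvE1). Comparisons share groups, and depth limits Igf2, with group means between 10.7 and 16.4 normalized counts.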
